A study of Mus musculus with 6 samples.

Results

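The collagen chain genes are the 38 protein-coding genes of the deposited count table whose symbols have the form Col, a type number, the letter a and a chain number. They are 38 of 14195 protein-coding genes and of 20199 genes in all. Grouped by the kind of structure their proteins form, 11 belong to the fibrillar collagens, 9 to the basement membrane collagens, 9 to the network formers, 7 to the collagens that sit on the surface of fibrils (FACIT) and 2 to the transmembrane collagens. The libraries were bulk RNA sequencing of aortic smooth muscle cells of C57B6 mice aged 12 weeks. The 3 knockout libraries (KO) carry the genotype label miR-21fl/flmTmG/Myh11ERT2 and the group label miR21 -/-, that is, floxed miR-21 alleles. The 3 wild-type libraries (WT) carry the label WT/mTmG/ Myh11ERT2 and the group label control. Both genotypes thus share mTmG, a fluorescent reporter of Cre recombination, and Myh11ERT2, an inducible driver under the smooth muscle myosin gene, so that recombination is directed at smooth muscle. The sources used here do not say if the driver was induced, by which method the cells were obtained, or if every library is a separate animal, and loss of miR-21 was not checked here. The spread between libraries that underlies each p-value may therefore be partly technical.

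A collagen molecule is a rope of 3 chains wound around each other, and each chain is the product of a gene of its own. Some chains wind with copies of themselves and others only with a fixed partner, so the levels of partner genes are of interest together. Fibrillar collagens (types I, III and V in the vessel wall) give the aorta its tensile strength. Type IV collagen forms the sheet of the basement membrane that surrounds each smooth muscle cell, with types XV and XVIII at its edges. Type VI collagen forms beaded filaments between that membrane and the fibrils, and type VIII collagen, a short chain network former, is known from vessels under repair. In cell and animal studies miR-21 has been tied to fibrosis, and miR-29 is the microRNA family best known for binding collagen messages directly.

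Levels are given as CPM, counts scaled to a common depth with TMM factors, and fold changes are log2 values of KO over WT with their standard errors from edgeR's quasi-likelihood fit over all 15185 genes tested. Library totals ran from 17216701 to 27568002 counts in KO and from 17123748 to 28610649 in WT. WT replicate 1 stood apart: on the first principal component of all genes it scored 58.1, while the remaining 5 libraries scored −27.3 to −1.53. It was the lowest of the 6 libraries for 11 and the highest for 8 of the 31 tested collagen chains; over all genes tested it was the lowest for 32.5% and the highest for 32.1%. For many of the results that rest on it, but not all, the value without it is given as well. Smooth muscle markers summed to between 43649 and 44731 CPM in KO and between 42246 and 48608 CPM in WT. Endothelial markers summed to 122 to 155 CPM in KO and 119 to 140 CPM in WT, with Kdr and Tek at 0 in some libraries. All 7 tested endothelial markers had a higher mean in KO (median log2 fold change 0.32), with overlapping groups and none at an unadjusted p under 0.05 in edgeR. Their part in the collagen values was not tested. Adventitial fibroblast markers, of interest because fibroblasts make much fibrillar collagen, summed to 197, 205 and 96.0 CPM in KO replicates 1 to 3 and to 182, 170.1 and 176 CPM in WT replicates 1 to 3, and all 10 had counts in every library. Macrophage markers summed to 2.73 to 10.8 CPM in KO and 5.11 to 10.9 CPM in WT, with Ptprc, Adgre1, C1qa, C1qc and Mrc1 at 0 in some libraries. Over the genes matched in the table, 3 of 7 adipocyte markers summed to 50.6 to 77.6 CPM in KO and 62.1 to 82.7 CPM in WT, and 3 of 6 Schwann cell markers to 1.60 to 2.51 CPM in KO and 2.45 to 3.45 CPM in WT. In bulk samples fewer cells of a type and less RNA per cell cannot be told apart.

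Because the deleted gene is a microRNA, the sequences that could join it to the collagen messages are shown first. The mature strands, from RefSeq on GRCm38.p6, are printed with the seed, bases 2 to 8, in capitals. Mature miR-21 lies at chr11:86584120-86584141 on the minus strand. The miR-29 strands are printed beside it because they are the family known for collagen; they were added after the values were seen, and no microRNA was analysed here.
mmu-miR-21a-5p: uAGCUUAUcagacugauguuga
mmu-miR-29a-3p: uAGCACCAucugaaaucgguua
mmu-miR-29b-3p: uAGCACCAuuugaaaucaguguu
mmu-miR-29c-3p: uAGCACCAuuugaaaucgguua
The 3 miR-29 strands share one seed, and miR-21 has another.

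A site for miR-21, the DNA letters ATAAGCT or TAAGCTA in the longest annotated 3′ UTR, was found in 1 of 38 collagen chains, namely Col12a1. Of the 31 tested chains 1 thus had a site, or 3.23%, against 12.0% of the 11009 tested protein-coding genes searched. The miR-29 letters TGGTGCT or GGTGCTA were found in 23 of the 38 chains. They were found in 20 of the 31 tested chains, or 64.5%, against 19.2% of all genes searched. Both sets of letters hold GGTGCT, which can encode glycine and alanine, so collagen coding sequence annotated as 3′ UTR would add matches. The share in the chains may therefore be too high. The median 3′ UTR was 1423 bases long in the tested chains and 1227 bases in all genes searched. Up to 4 miR-29 sites stood in 1 tested chain (Col5a1 and Col4a3), and 7 in Col11a1, which was too low to test. The 3′ UTR annotated for Col11a1 is 5675 bases long, beside 7667 bases for its longest transcript. Letters around several Col11a1 sites and around a Col16a1 site read as the glycine triplets of collagen coding sequence. These sites may therefore not lie in a true 3′ UTR. Windows of 30 bases around the Col12a1 site and around miR-29 sites of the chains whose values are given most fully below are printed with the matched letters in capitals and with their first matched base counted from the start of the 3′ UTR; the transcripts are of GENCODE vM1 on NCBIM37, used for sequence only.
miR-21, Col12a1, 8mer at base 291 of 2178: ggaggcgcctaATAAGCTActaaccaacag
miR-29, Col1a1, 8mer at base 919 of 1423: gaaggaatttcTGGTGCTAtagaagctgag
miR-29, Col1a2, 7mer-A1 at base 516 of 881: tgcaacacaaaGGTGCTAattagtagtatt
miR-29, Col3a1, 8mer at base 235 of 959: aaatgtctcaaTGGTGCTAtaataaataaa
miR-29, Col5a1, 8mer at base 1018 of 2498: cttgtctcttgTGGTGCTAtgtgtccggag
miR-29, Col27a1, 7mer-m8 at base 612 of 1683: tgtgaaatcgcTGGTGCTcacaattgtctc
miR-29, Col8a1, 8mer at base 2199 of 2653: atattctaccaTGGTGCTAatatcagagct
miR-29, Col4a1, 8mer at base 33 of 1378: ccgtcacaacaTGGTGCTActcccccccct
An 8mer pairs with the whole seed and has an A after it, a 7mer-m8 lacks that A, and a 7mer-A1 has it but lacks the pair at the last seed base. A match is a description of letters in the transcript and not a measured binding site.

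Together the collagen chains took 1.96% ± 0.15 of all counts in KO and 1.98% ± 0.19 in WT (SD, n = 3 each), with 2.14%, 1.90% and 1.86% in KO replicates 1 to 3 against 1.76%, 2.09% and 2.10% in WT replicates 1 to 3. The groups overlapped, and an exact permutation test of the log2 share gave p = 1 (2-sided; 3 against 3 cannot go below 0.1). A few chains carried nearly all of this RNA: Col18a1, Col3a1, Col1a2, Col1a1, Col4a1, Col4a2, Col6a2, Col6a1, Col5a1, Col6a3, Col4a5, Col4a6, Col5a2 and Col15a1 held 98.9% of collagen counts as a mean over the libraries.

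Divided by the length of the longest annotated transcript, the order of the levels was led by 1 basement membrane chain and 3 fibrillar ones. Col18a1, which encodes the chain whose end can be cut off as endostatin, stood at 686 ± 9.69 CPM per kilobase in KO and 606 ± 86.7 in WT (SD, n = 3 each, here and below). Col3a1, the only chain of type III collagen, stood at 579.9 ± 92.6 CPM per kilobase in KO and 675 ± 143 in WT. Col1a2 and Col1a1, the chains of type I collagen, followed at 474 ± 40.5 CPM per kilobase in KO and 555 ± 16.6 in WT for Col1a2 and 290.3 ± 25.2 CPM per kilobase in KO and 363 ± 33.8 in WT for Col1a1. The range of Col18a1 over the 6 libraries overlapped that of Col3a1, and that of Col3a1 overlapped Col1a2, so ranges over all libraries do not separate these neighbours. Compared within a library, Col3a1 was above Col1a2 in all but WT replicate 1 (520 against 565 CPM per kilobase), while Col18a1 and Col3a1 changed places. Every library had more Col1a2 than any library had Col1a1. Next came Col4a1, Col4a2, Col6a2 and Col6a1, each overlapping its neighbour in the order. Within every library Col4a1 was nevertheless above Col4a2 and, by this length, Col6a2 above Col6a1. A clear step separated Col6a1, with a lowest library at 164, from Col5a1, with a highest library at 94.6 CPM per kilobase. Col5a1, Col4a5, Col15a1, Col4a6, Col6a3 and Col5a2 formed the next tier, all between 30.8 and 94.6. Another step led to Col14a1, the highest of the FACIT chains, at 15.4 ± 1.01 CPM per kilobase in KO and 17.3 ± 2.97 in WT, and a further step to Col19a1 and Col16a1. Every other chain stayed at or below 3.92 CPM per kilobase in every library. If the union of all annotated exons is used as the length, Col1a2 moves to the 5th place and Col1a1 to the 3rd, and Col6a1 comes before Col6a2.

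**Figure D1:**
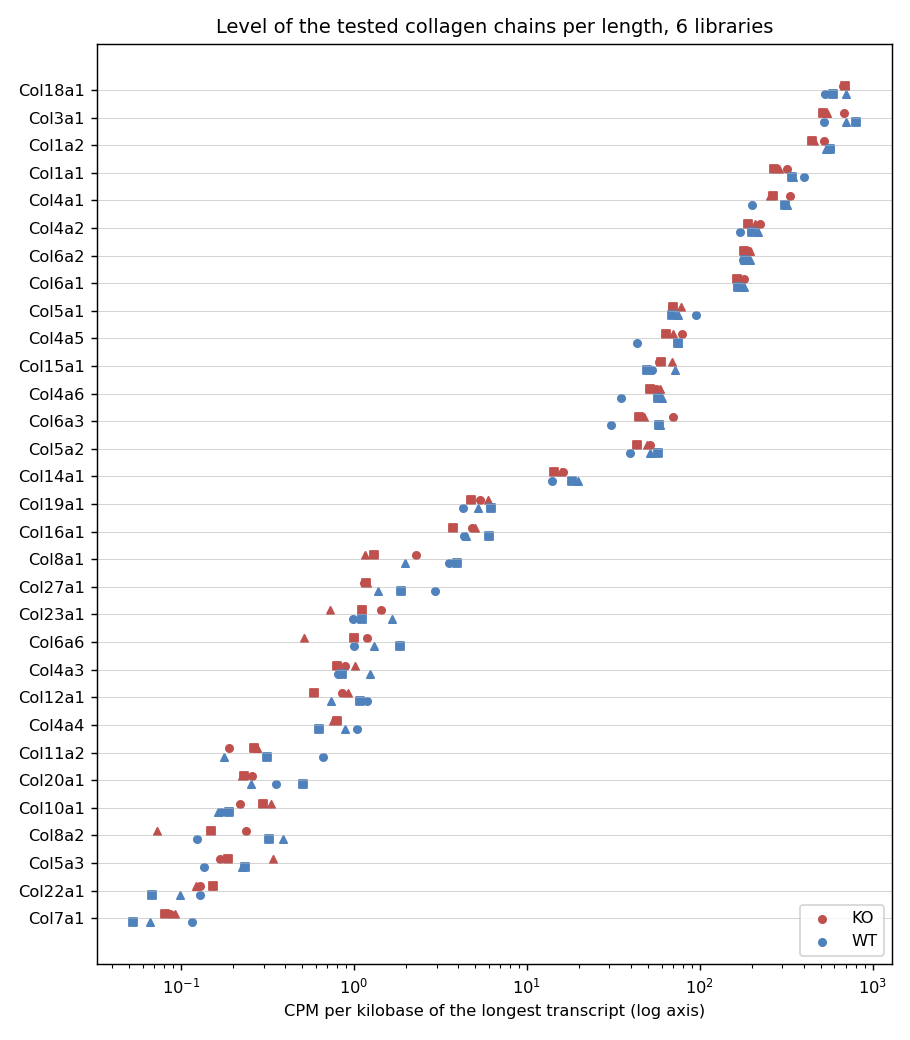
Level per length of the 31 tested collagen chains, in CPM per kilobase of the longest transcript on a log axis, with 1 point per library, KO (red) above WT (blue), and circle, triangle and square for replicates 1 to 3. Col18a1 and Col3a1 lead, and levels span from 0.0530 for Col7a1 to 803 for Col3a1.

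Of the 38 chains, 31 passed the filter on low counts: 8 of 11 fibrillar, 9 of 9 basement membrane, 7 of 9 network, 6 of 7 FACIT and 1 of 2 transmembrane chains. After adjustment none of the 31 reached edgeR's threshold of 0.05, the lowest adjusted p being 0.686 for Col27a1; the background was also 0% of the 15185 genes tested. DESeq2 called 0 of the 31 chains, where it called 0.448% of all genes (51 lower and 17 higher in KO), and limma voom called 0. At an unadjusted p under 0.05 edgeR listed 3 chains lower in KO (Col27a1, Col8a1 and Col1a1), beside 3.44% of all genes, and 0 higher, beside 2.85% of all genes. KO and WT libraries did not overlap for 3 chains lower in KO (Col1a1, Col1a2 and Col27a1), beside 7.57% of all genes, and for 1 higher in KO (Col10a1), beside 6.95%. A lower fitted mean in KO was seen in 17 of 31 chains, beside 50.1% of all genes, and the median log2 fold change of the chains was −0.10, beside −0.00078 over all genes tested. The share of chains with a lower mean is near the background and is not a result about the chains.

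**Figure D2:**
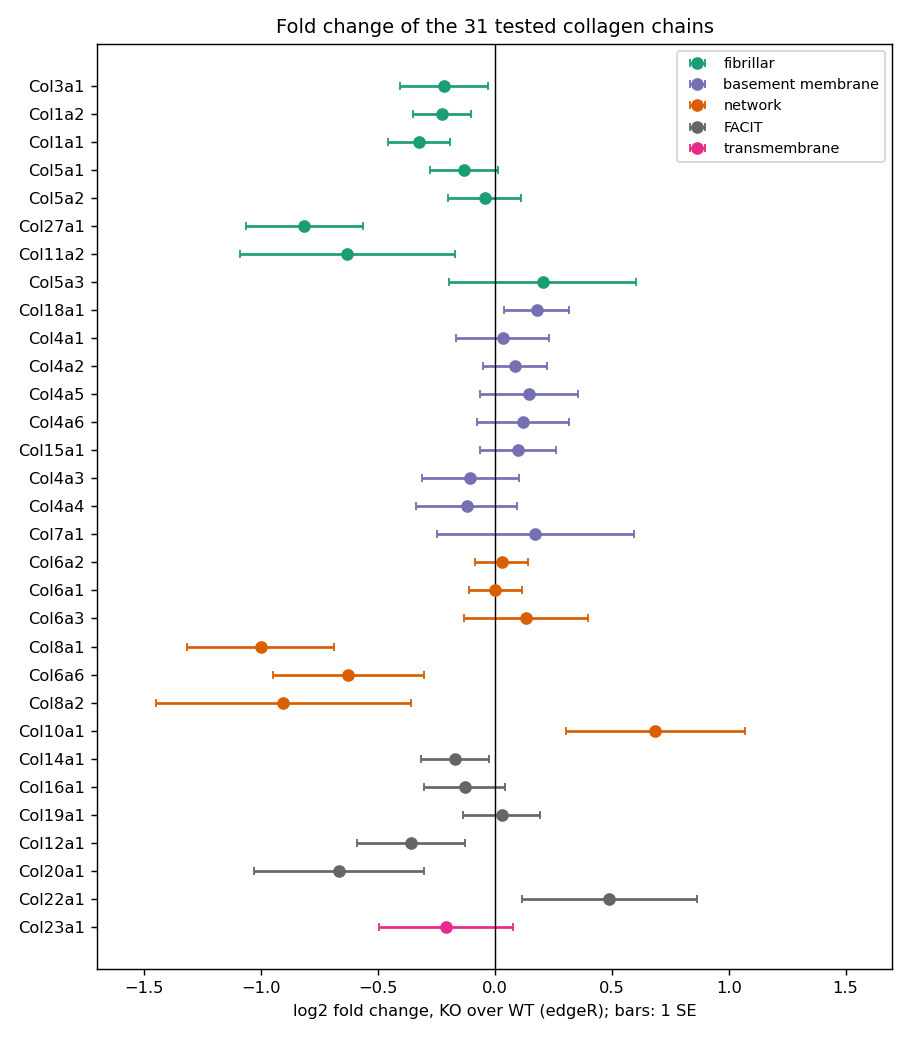
Log2 fold change of KO over WT for the 31 tested collagen chains, grouped and coloured by type, with bars of 1 standard error from edgeR. Of the fibrillar chains 7 of 8 lie left of 0 and of the basement membrane chains 7 of 9 lie right of it.

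The fibrillar collagens had a lower mean in KO for 7 of 8 tested chains, with a median log2 fold change of −0.22, and none passed the adjusted test. Without WT replicate 1 a lower mean was seen in 6 of 8, with a median of −0.20. Type I collagen is made of 2 chains from Col1a1 and 1 from Col1a2. Col1a1 (chromosome 11, 94936224 to 94953042, plus strand, mm10) had 1884, 1691 and 1589.8 CPM in KO replicates 1 to 3, against 2383, 2063 and 2013 CPM in WT replicates 1 to 3. Each KO library lay below each WT library, and the log2 fold change was −0.32 ± 0.13 SE (edgeR adjusted p = 0.778). Its partner Col1a2 (chromosome 6, 4504814 to 4541544, plus strand) had 2784, 2446 and 2379.5 CPM in KO replicates 1 to 3, against 3020, 2864 and 3014 CPM in WT replicates 1 to 3. Again the groups did not overlap, with a log2 fold change of −0.23 ± 0.12 SE (edgeR adjusted p = 0.778). WT replicate 1 was the highest library for both, and without it the log2 fold changes were −0.24 for Col1a1 and −0.21 for Col1a2. The exact permutation test gave p = 0.1 for each, the smallest that 3 against 3 allows. Groups without overlap always give this value, so it adds nothing to the separation.

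Col3a1 (chromosome 1, 45311538 to 45349706, plus strand), whose homotrimer co-assembles with type I in stretchable tissues, had 3814, 3015 and 2851 CPM in KO replicates 1 to 3, against 2892, 3906 and 4467 CPM in WT replicates 1 to 3. KO replicates 1 and 2 were above WT replicate 1, so the groups overlapped, and the log2 fold change was −0.22 ± 0.19 SE (edgeR adjusted p = 0.793). It was −0.38 without WT replicate 1 and −0.08 without WT replicate 3. The type V chains, which start and limit the thickness of fibrils, lay closer together. Col5a1 had 583, 651 and 592 CPM in KO replicates 1 to 3, against 795, 625 and 579.6 CPM in WT replicates 1 to 3, where WT replicate 1 alone stood above the rest (log2 fold change −0.13 ± 0.15 SE, and 0.02 without that library). Col5a2 had a log2 fold change of −0.04 ± 0.16 SE and the low-level Col5a3 one of 0.20 ± 0.40 SE.

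Col27a1 (chromosome 4, 63214004 to 63334991, plus strand), a fibrillar collagen known mainly from cartilage, had the smallest p of all the chains in edgeR, while Col8a1 had it in DESeq2 and limma voom. It had 8.65, 9.07 and 8.93 CPM in KO replicates 1 to 3, against 22.4, 10.5 and 14.2 CPM in WT replicates 1 to 3. The KO libraries were tightly grouped below all WT libraries, while the WT libraries were spread, WT replicate 1 being the highest. The log2 fold change was −0.81 ± 0.25 SE (edgeR unadjusted p = 0.00994, adjusted p = 0.686; DESeq2 adjusted p = 0.228). Without WT replicate 1 it shrank to −0.48, and without WT replicate 2 it was −1.03, where DESeq2 gave an adjusted p of 0.0145. DESeq2 called 0.675% of genes in that fit. Its adjusted p for Col27a1 was 0.818 without KO replicate 1, 0.779 without KO replicate 2, 0.541 without WT replicate 1 and 0.406 without WT replicate 3. Col11a2, another cartilage chain, had a log2 fold change of −0.63 ± 0.46 SE that rested on WT replicate 1, since it was −0.02 without it. The 6 matched of 9 listed chondrocyte markers summed to 131, 117.7 and 117.7 CPM in KO against 97.1, 107 and 82.7 CPM in WT. Acan, a cartilage proteoglycan gene, carried most of the difference, at 63.2 ± 9.82 CPM in KO and 44.4 ± 15.1 CPM in WT with overlapping groups. Chad, Matn3 and Hapln1 had a lower mean in KO, and the part of these markers in the Col27a1 result was not tested. The fibroblast marker sum was lowest in KO replicate 3, which was also the lowest library for Col1a1, Col1a2 and Col3a1, and it lay between 170.1 and 205 CPM in the other 5 libraries. Its part in the fibrillar values was not tested.

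**Figure D3:**
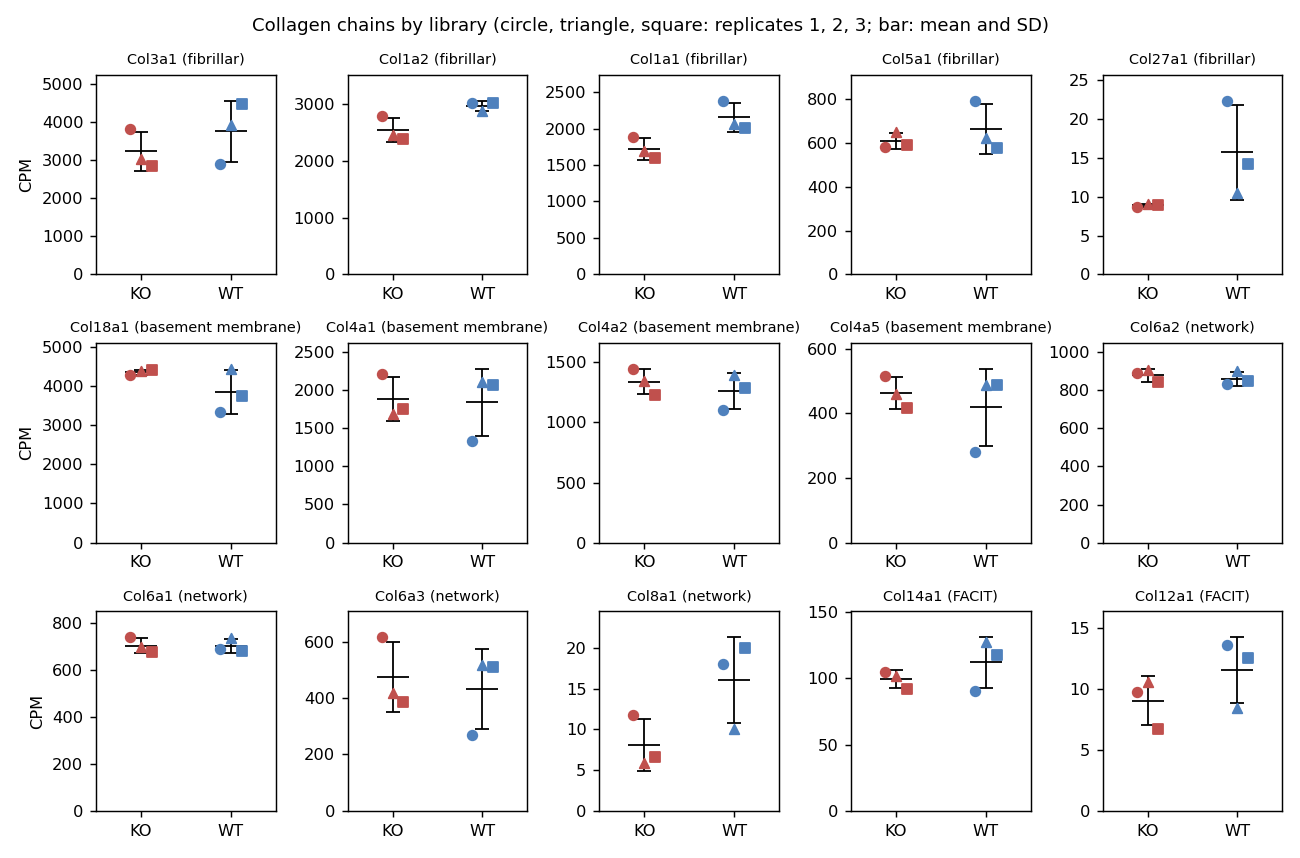
CPM of 15 collagen chains in each library, KO (red, left) and WT (blue, right), with circle, triangle and square for replicates 1 to 3 and black bars for the mean and SD of each genotype. KO lies below WT without overlap for Col1a1, Col1a2 and Col27a1, while the circle of WT replicate 1 is the lowest point for Col18a1, Col4a1, Col4a2, Col4a5 and Col6a3.

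The basement membrane collagens had a higher mean in KO for 7 of 9 chains, with a median log2 fold change of 0.10 and a range from −0.12 to 0.18, and none had an unadjusted p under 0.05 in edgeR. Without WT replicate 1 only 4 of 9 were higher and the median was −0.0025, so the direction rests on that library. Col18a1 (chromosome 10, 77052178 to 77166548, minus strand) had 4277, 4368 and 4394 CPM in KO replicates 1 to 3, against 3344, 4432 and 3749 CPM in WT replicates 1 to 3. The KO libraries were close together and WT replicate 2 was above them all, with a log2 fold change of 0.18 ± 0.14 SE (edgeR adjusted p = 0.786). Its relative Col15a1, which encodes the type XV chain, had a log2 fold change of 0.10 ± 0.16 SE.

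The 6 type IV genes stand in 3 head-to-head pairs. On mm10 the 5′ ends of Col4a1 and Col4a2 overlap by 22 bases on chromosome 8, so reads there cannot be assigned if strand was not kept. The 5′ ends of Col4a3 and Col4a4 lie 72 bases apart on chromosome 1, and those of Col4a5 and Col4a6 lie 1309 bases apart on chromosome X. Col4a1 and Col4a2 encode the chains of the common type IV molecule. Col4a1 had 2205, 1679.6 and 1744 CPM in KO replicates 1 to 3, against 1327, 2107 and 2068 CPM in WT replicates 1 to 3. WT replicate 1 was the lowest library, and the log2 fold change was 0.03 ± 0.20 SE, or −0.15 without that library. Col4a2 had 1443, 1346 and 1232 CPM in KO replicates 1 to 3, against 1100.4, 1396 and 1289 CPM in WT replicates 1 to 3, again with WT replicate 1 lowest (log2 fold change 0.09 ± 0.14 SE, or −0.0025 without it).

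Col4a5, whose product joins that of Col4a6 in another type IV molecule known from smooth muscle, had 515, 458 and 416 CPM in KO replicates 1 to 3, against 281, 487 and 487 CPM in WT replicates 1 to 3. The log2 fold change was 0.15 ± 0.21 SE for Col4a5 and 0.12 ± 0.20 SE for Col4a6, and both signs turned without WT replicate 1 (−0.07 and −0.09). Within a library the counts of the pair kept a narrow ratio, Col4a5 over Col4a6 being 1.26 ± 0.12 in KO and 1.23 ± 0.044 in WT (SD, n = 3 each). Col4a3 and Col4a4, best known from the kidney glomerulus, were low, at 7.68 ± 0.898 CPM in KO and 8.25 ± 2.02 CPM in WT for Col4a3 and 6.07 ± 0.175 CPM in KO and 6.64 ± 1.66 CPM in WT for Col4a4, with a pair ratio of 1.27 ± 0.19 in KO and 1.29 ± 0.39 in WT. Col7a1, the anchoring fibril chain of skin, was at 0.799 ± 0.0529 CPM in KO and 0.723 ± 0.306 CPM in WT.

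Among the tested network formers, the type VI chains Col6a1 and Col6a2 differed least. They need each other and 1 more chain to assemble. Their log2 fold changes were 0.0019 ± 0.11 SE for Col6a1 and 0.03 ± 0.11 SE for Col6a2. Col6a2 had 888, 906 and 841 CPM in KO replicates 1 to 3, against 829.7, 901 and 850 CPM in WT replicates 1 to 3. Col6a1 had 739, 696 and 674 CPM in KO replicates 1 to 3, against 688, 736 and 682 CPM in WT replicates 1 to 3, and in both genes the libraries of the genotypes were mixed. Col6a3, which encodes the long chain that completes the molecule, had 616, 418 and 388 CPM in KO replicates 1 to 3, against 269.8, 517 and 509.7 CPM in WT replicates 1 to 3. It spread far more than its partners within each genotype, with KO replicate 1 highest and WT replicate 1 lowest (log2 fold change 0.13 ± 0.26 SE, or −0.12 without WT replicate 1). Col6a6, whose product can stand in for that of Col6a3, had 8.48, 3.64 and 7.08 CPM in KO replicates 1 to 3, against 7.13, 9.20 and 13.0 CPM in WT replicates 1 to 3 (log2 fold change −0.63 ± 0.32 SE, edgeR adjusted p = 0.778).

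Type VIII collagen had the largest fold change among the tested chains. Col8a1 (chromosome 16, 57624258 to 57754737, minus strand) had 11.7, 5.93 and 6.62 CPM in KO replicates 1 to 3, against 18.1, 10.02 and 20.02 CPM in WT replicates 1 to 3. KO replicate 1 exceeded WT replicate 2, so the groups overlapped, while the other libraries were apart. The log2 fold change was −1.002 ± 0.32 SE (edgeR unadjusted p = 0.0113, adjusted p = 0.711; DESeq2 adjusted p = 0.216). DESeq2 gave an adjusted p of 0.0129 without KO replicate 1, a fit that called 0.311% of genes, and of 0.0215 without WT replicate 2. Without KO replicate 3 DESeq2 gave no adjusted p for Col8a1 or Col27a1, and with any other library left out Col8a1 was not called. Its partner Col8a2 was at 0.660 ± 0.356 CPM in KO and 1.20 ± 0.596 CPM in WT and had a log2 fold change of −0.90 ± 0.54 SE (edgeR adjusted p = 0.778). Col10a1, a marker of hypertrophic cartilage, had 0.683, 1.03 and 0.925 CPM in KO replicates 1 to 3, against 0.535, 0.508 and 0.595 CPM in WT replicates 1 to 3, which did not overlap, with a log2 fold change of 0.69 ± 0.38 SE (edgeR adjusted p = 0.778) from 12 to 26 counts in KO and 9 to 17 in WT.

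The FACIT chains, which coat fibrils and adjust their spacing, had a lower mean in KO for 4 of 6 tested members, with a median log2 fold change of −0.15. Col14a1, the highest of them, had 105, 102 and 92.2 CPM in KO replicates 1 to 3, against 90.6, 128 and 117.7 CPM in WT replicates 1 to 3 (log2 fold change −0.17 ± 0.14 SE, or −0.30 without WT replicate 1). Col12a1, the chain with the miR-21 site printed above, had 9.79, 10.6 and 6.76 CPM in KO replicates 1 to 3, against 13.7, 8.49 and 12.5 CPM in WT replicates 1 to 3. The groups overlapped and its log2 fold change was −0.36 ± 0.23 SE (edgeR adjusted p = 0.778). Col16a1 had 25.1, 26.1 and 19.4 CPM in KO replicates 1 to 3, against 22.5, 23.2 and 31.2 CPM in WT replicates 1 to 3. Col19a1, a basement membrane zone chain of muscle, had 22.8, 25.4 and 20.3 CPM in KO replicates 1 to 3, against 18.1, 22.2 and 26.6 CPM in WT replicates 1 to 3. Both were mixed between the genotypes, with log2 fold changes of −0.13 ± 0.17 SE for Col16a1 and 0.03 ± 0.17 SE for Col19a1. Without WT replicate 1 these were −0.22 for Col16a1 and −0.10 for Col19a1. Col20a1 had 1.08, 0.943 and 0.961 CPM in KO replicates 1 to 3, against 1.49, 1.07 and 2.14 CPM in WT replicates 1 to 3 (log2 fold change −0.67 ± 0.36 SE), with WT replicate 2 inside the KO range. Col22a1, known from muscle and tendon junctions, had 1.14, 1.08 and 1.35 CPM in KO replicates 1 to 3, against 1.13, 0.864 and 0.595 CPM in WT replicates 1 to 3 (log2 fold change 0.49 ± 0.37 SE). The only tested transmembrane chain, Col23a1, had 8.14, 4.09 and 6.26 CPM in KO replicates 1 to 3, against 5.59, 9.41 and 6.30 CPM in WT replicates 1 to 3, with the genotypes mixed (log2 fold change −0.21 ± 0.29 SE).

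The remaining 7 chains had too few counts to test. Col2a1, the main collagen of cartilage, had 1, 9 and 4 counts in KO against 6, 2 and 8 in WT. Col11a1 had 2, 5 and 1 counts in KO against 0, 2 and 8 in WT, Col24a1 0, 5 and 2 counts in KO against 1, 3 and 1 in WT, and Col9a3 2, 3 and 9 counts in KO against 3, 3 and 4 in WT. Col13a1, a transmembrane chain, had 0, 4 and 5 counts in KO against 7, 4 and 3 in WT. Col6a5 had 1, 17 and 0 counts in KO against 0, 1 and 6 in WT, where KO replicate 2 alone reached 17, and Col6a4 had 0, 0 and 0 counts in KO against 3, 0 and 7 in WT. A count of 0 allows up to 3 counts per library, which is between 0.105 and 0.178 CPM here and covers counting error only. In an edgeR fit with no filter on low counts, Col6a4 was the 1 of these 7 chains with an unadjusted p under 0.05 (edgeR adjusted p = 0.854), where 3.02% of all genes were listed as lower, and it rests on 10 counts in all, from WT replicates 1 and 3.

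The make-up of the collagen RNA was also compared, with the summed counts of all 38 chains as 100%, a denominator chosen after the values were seen. The fibrillar share was 44.9%, 42.9% and 42.3% in KO replicates 1 to 3, against 52.3%, 45.9% and 49.9% in WT replicates 1 to 3. The basement membrane share was 43.5%, 45.4% and 46.4% in KO against 36.7%, 43.1% and 39.3% in WT. The network share was 10.8%, 10.7% and 10.5% in KO against 10.1%, 10.2% and 9.90% in WT. In none of these types did the genotypes overlap, the fibrillar share being 43.4% ± 1.3 in KO and 49.4% ± 3.3 in WT and the basement membrane share 45.1% ± 1.5 in KO and 39.7% ± 3.2 in WT (SD, n = 3 each). Exact permutation tests gave p = 0.1 for each, the smallest possible and the value that groups without overlap always give, or 0.167 after adjustment over the 5 types. The shares sum to 100%, so a lower fibrillar share and a higher basement membrane share are not separate results.

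The fibrillar difference stayed negative when any 1 library was left out, at −7.73 to −4.50 percentage points, and it was −4.50 points without WT replicate 1. The same groups stayed apart when Col18a1, Col3a1, Col1a1, Col1a2 or Col4a1 was left out in turn, the fibrillar difference then lying between −6.22 and −5.00 points. The network share overlapped without Col3a1, Col1a1 or Col1a2. As shares of all counts in the library the types did overlap: fibrillar chains took 0.961%, 0.814% and 0.786% in KO against 0.921%, 0.956% and 1.05% in WT (2-sided exact permutation test, p = 0.3), and basement membrane chains took 0.931%, 0.862% and 0.861% in KO against 0.646%, 0.898% and 0.823% in WT (p = 0.3 by the exact test). The FACIT share of collagen counts was 0.812% ± 0.056 in KO and 0.864% ± 0.043 in WT, and the transmembrane share 0.0322% ± 0.0086 in KO and 0.0363% ± 0.0076 in WT.

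**Figure D4:**
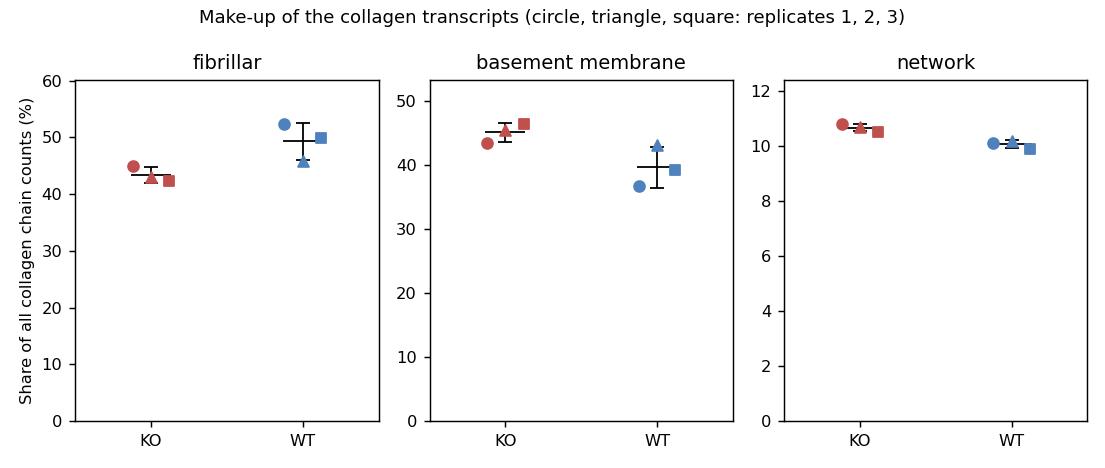
Share of all collagen chain counts, in percent, taken by the fibrillar, basement membrane and network chains in each library, KO (red, left) and WT (blue, right), with circle, triangle and square for replicates 1 to 3 and bars for the mean and SD. The fibrillar share is lower in every KO library (42.3% to 44.9%) than in any WT library (45.9% to 52.3%), and the basement membrane share is higher.

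Ratios between partner chains or neighbouring genes do not depend on how libraries are scaled, and 9 of them were compared. Col1a1 over Col1a2 was 0.677, 0.691 and 0.668 in KO against 0.789, 0.720 and 0.668 in WT. Col4a1 over Col4a2 was 1.40 ± 0.14 in KO and 1.44 ± 0.21 in WT, and Col6a1 over Col6a2 was 0.801 ± 0.032 in KO and 0.817 ± 0.014 in WT (SD, n = 3 each). Col3a1 over Col5a2, neighbouring genes on chromosome 1, was 10.1 ± 1.0 in KO and 11.4 ± 0.4 in WT. None of the 9 separated the genotypes, each having a Benjamini-Hochberg adjusted p of 0.9 by the exact permutation test. WT replicate 1 was the highest or lowest of all libraries for several ratios but not for Col3a1 over Col5a2 or Col6a1 over Col6a2. Its Col5a1 over Col5a2 was 3.04, against 1.72 to 2.06 in KO and 1.53 to 1.83 in the other WT libraries.

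The genes that process, export, cross-link and bind collagen were read as 5 lists, and none of their 56 tested members passed in edgeR or DESeq2. In the fit of all libraries 28 of the 56 had a lower mean in KO, beside 50.1% of all genes. Without WT replicate 1 the number was 39 of 57, beside 48.8% of all genes, so the directions within the lists depend on that library. The genotypes did not overlap for 5 members lower in KO (P4ha1, P3h3, Serpinh1, Adamts3 and Itga11), beside 7.57% of all genes, and for 1 higher in KO (Bmp1), beside 6.95%; P3h3, Adamts3 and Bmp1 were named for this after their values were seen. Of the hydroxylases and sugar transferases that modify the chains 11 of 14 had a lower mean in KO (median log2 fold change −0.08). P4ha1, a catalytic subunit of prolyl 4-hydroxylase, had 97.2, 95.6 and 84.4 CPM in KO replicates 1 to 3, against 138, 103 and 196 CPM in WT replicates 1 to 3, with each KO library below each WT library (log2 fold change −0.65 ± 0.21 SE, edgeR adjusted p = 0.731). Of the chaperone and export genes 3 of 9 had a lower mean (median 0.06). Serpinh1, which encodes the collagen chaperone HSP47, had 1235, 928 and 1106 CPM in KO replicates 1 to 3, against 1453, 1492 and 1469 CPM in WT replicates 1 to 3. Its WT libraries were nearly equal and all above KO (log2 fold change −0.43 ± 0.14 SE, edgeR adjusted p = 0.709).

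Of the trimming and crosslinking genes 7 of 12 had a lower mean in KO (median log2 fold change −0.06). Bmp1, a protease that trims procollagen, had 128.19, 171 and 130.5 CPM in KO replicates 1 to 3, against 124, 127.99 and 121 CPM in WT replicates 1 to 3 (log2 fold change 0.20 ± 0.14 SE, edgeR adjusted p = 0.778). Pcolce, an enhancer of that trimming, had a log2 fold change of −0.56 ± 0.20 SE and Loxl1, a lysyl oxidase, one of −0.30 ± 0.16 SE, both with overlapping groups. Of the collagen receptors 2 of 7 had a lower mean (median 0.09). Itga11, the partner of beta 1 integrin in a receptor for fibrillar collagen, was at 1.25 ± 0.407 CPM in KO and 2.26 ± 0.0844 CPM in WT without overlap (log2 fold change −0.86 ± 0.32 SE, edgeR adjusted p = 0.775). Itga1, the corresponding receptor subunit that prefers type IV collagen, was at 317 ± 21.5 CPM in KO and 256 ± 36.1 CPM in WT with overlap (log2 fold change 0.31 ± 0.14 SE, edgeR adjusted p = 0.778). WT replicate 1 was the lowest library for Itga1 and for Itgb1, the gene of beta 1 integrin, and the highest for Itga10. Itgb1 was at 1541 CPM in WT replicate 1 and at 2633 CPM in each of WT replicates 2 and 3. Other basement membrane proteins, the laminins among them, had a lower mean in KO for 5 of 14 (median 0.04), and Lama4, a laminin chain of vessels, had a log2 fold change of 0.27 ± 0.15 SE. WT replicate 1 was the lowest library for Lama4, at 188 CPM beside 255 CPM in each of WT replicates 2 and 3. It was also the lowest for the laminin gene Lamc3 and the highest for Sparc. Directions without WT replicate 1 were counted only over the 5 lists together.

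Promoter letters were read for 30 of the chains, which have 32 entries of 300 bases around the start in RefSeq on GRCm38.p6. The GC box GGGCGG stood on either strand in 21 of the 32, or 65.6%, against 35.7% of 32851 promoters. The base composition of the promoters was not matched. The 32 entries are not independent, since Col6a2 and Col18a1 were entered more than once and the Col4a1 and Col4a2 entries share 78 bases. CCAAT stood in 31.2% against 37.4%, and TATAAA in 12.5% against 13.6%. The Smad letters CAGAC stood in 50% against 49.6%. The CArG box of serum response factor was found in 1 chain promoter, that of Col6a4, or 3.12%, against 1.63% of all. A match says only that the letters are there.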

How the data were processed

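Messenger RNA of aortic smooth muscle cells was measured in 3 KO and 3 WT libraries, grouped by the genotype labels. Libraries were made with an Illumina TruSeq kit after Trizol extraction, per the labels' protocols, which do not state strandedness. Tools named in the submitters' processing notes are STAR 2.6 and DESeq2, with build mm10; the program that counted reads is not given there. The deposited values are expected counts per gene, not normalised, as read from the values: 65.4% lay within 0.01 of a whole number. They were rounded to whole numbers before testing. Deposited gene ends lay 1 base past the RefSeq gene end and were reduced by 1, so that positions are 1-based on mm10.

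Collagen chains were taken by symbol among protein-coding genes. The members, the types and the partner and marker lists were chosen with earlier results of these data known. Genes passing filterByExpr (15185) were tested with edgeR 4.0.16 in R 4.3.3 (glmQLFit and glmQLFTest, robust=TRUE, TMM, 2-sided, Benjamini-Hochberg over all genes tested, threshold 0.05). DESeq2 1.42.0 and limma 3.58.1 (voom) were alternatives. Each standard error is the absolute log2 fold change over the root of its F value. Shares and ratios were compared with exact permutation tests over libraries. The alternatives also covered size factors by relative log expression, library totals, no filter on low counts, at least 10 counts in 3 libraries, counts not rounded, the replicate number as a block and each library left out. The code of the fits was run on simulated counts with large set changes and no outlying library. That run does not measure how well smaller changes would be found in these data. Every pair of libraries differed by more than sampling noise (chi-square per gene from 14.0 to 98.2). Every chain could be named; values in every library are given for tested chains that are, within their type, among the 4 highest by mean CPM or the 3 with the smallest p, and up to 4 members of each partner list may be named.

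Genotypes share replicate numbers, but the labels do not say that a number marks a shared animal or day. Transcript lengths and 3′ UTRs came from GENCODE vM1 (NCBIM37) by symbol, with no coordinates taken. Promoter and microRNA sequences came from RefSeq on GRCm38.p6. Protein sequences were not used here.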

Additional observations from a re-analysis of the deposited data

How the results depend on the processing

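No collagen chain and no partner gene was called by edgeR under any of the 8 other settings or with any 1 library left out, and no chain changed sign under the 8 other settings. Leaving out 1 library changed the sign of 16 of the 31 chains, 9 of them when WT replicate 1 was the one left out. The median log2 fold change of the chains lay between −0.116 and 0.028 with 1 library left out, and that of the partner genes, 0.00098 over all libraries, between −0.042 and 0.037. The partner median was −0.013 with limma voom and −0.0029 with at least 10 counts in 3 libraries. Chains lower in KO at an unadjusted p under 0.05 numbered 3 in the fit of all libraries, 6 without WT replicate 1 (Col14a1, Col1a1, Col27a1, Col3a1, Col6a6 and Col8a2) and 5 without WT replicate 2 (Col11a2, Col12a1, Col20a1, Col27a1 and Col8a1); the cause was not tested. Shares within collagen counts, DESeq2 with a library left out, the union exon length and the miR-29 seed were chosen after seeing the data.

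Same-numbered KO and WT libraries did not deviate together, with correlations of −0.27, −0.18 and −0.084, so the numbers are not taken as pairs. With the replicate block edgeR called 0 chains, with a smallest adjusted p of 0.894, and the partner median was −0.014. Chains under about 1 CPM rest on few counts.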
